A study of Rattus norvegicus with 6 samples.

Results

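Inhibitory signalling by GABA and glycine was described across 30 genes of rat hippocampus: 15 subunit genes of the GABA-A receptor, both subunit genes of the GABA-B receptor, 6 genes of GABA synthesis, packaging, uptake and breakdown, and 7 genes of glycine receptors, their anchoring and glycine transport. The genes were chosen by symbol from known function, with earlier results of these data already known. All 30 were among the 35362 symbols of the mRNA table. Other genes of the same families were not analysed here. The animals were Sprague-Dawley rats that received B[a]P (benzo[a]pyrene, a polycyclic hydrocarbon of smoke and soot) in corn oil by daily gavage at 2.0 mg/kg for 7 weeks. Controls received corn oil alone for 7 weeks. The labelled age was 7 weeks in both groups, and whether it refers to the start or the end of gavage was not given. Each group had 1 RNA-seq library and 1 miRNA-seq library, and neither the sex nor any pooling of animals was given in the sources used here. Every difference below is therefore between 2 libraries with no replicate check, no p-value was computed, and the order of neighbouring levels has no spread to be read against. In bulk tissue, fewer cells of a type and less RNA per cell cannot be told apart.

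GABA is the main inhibitory transmitter of the hippocampus. GABA-A receptors are chloride channels of 5 subunits, and the subunit mix sets where a receptor sits and how fast it acts: receptors with a gamma subunit serve synapses, while those with alpha5 or delta carry the slow tonic current outside them. GABA-B receptors are G-protein-coupled dimers that open potassium channels and dampen release. Glycine receptors, also chloride channels, dominate in spinal cord and brainstem, and share with GABA-A receptors the anchoring protein gephyrin.

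Of the 30 genes, 20 reached 1 FPKM (fragments per kilobase of gene, scaled to library size) in either library, and 10 stayed below it. Of the 20, 2 were at least 25% higher after B[a]P and 0 were at least 20% lower, the same distance on the log2 scale of FPKM + 1; this is the size rule used throughout. Over all 13261 symbols at 1 FPKM or more, 4.29% were higher by this rule and 2.74% lower. None of the 20 differed by 1.5-fold, against 1.79% of all symbols. Small differences in one direction prevailed instead: 16 of the 20 lay above the table's median log2 ratio of 0.09, which by construction 50% of all symbols exceed. The median log2 ratio of the 20 genes was 0.20, and they ranged from -0.03 for Gabra5 to 0.34 for Gabra2. Both genes past the size rule fell short of it when the libraries were rescaled by the median of their ratios, which left 0 of 20 and gave 2.05% higher and 4.02% lower over all symbols.

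**Figure D1:**
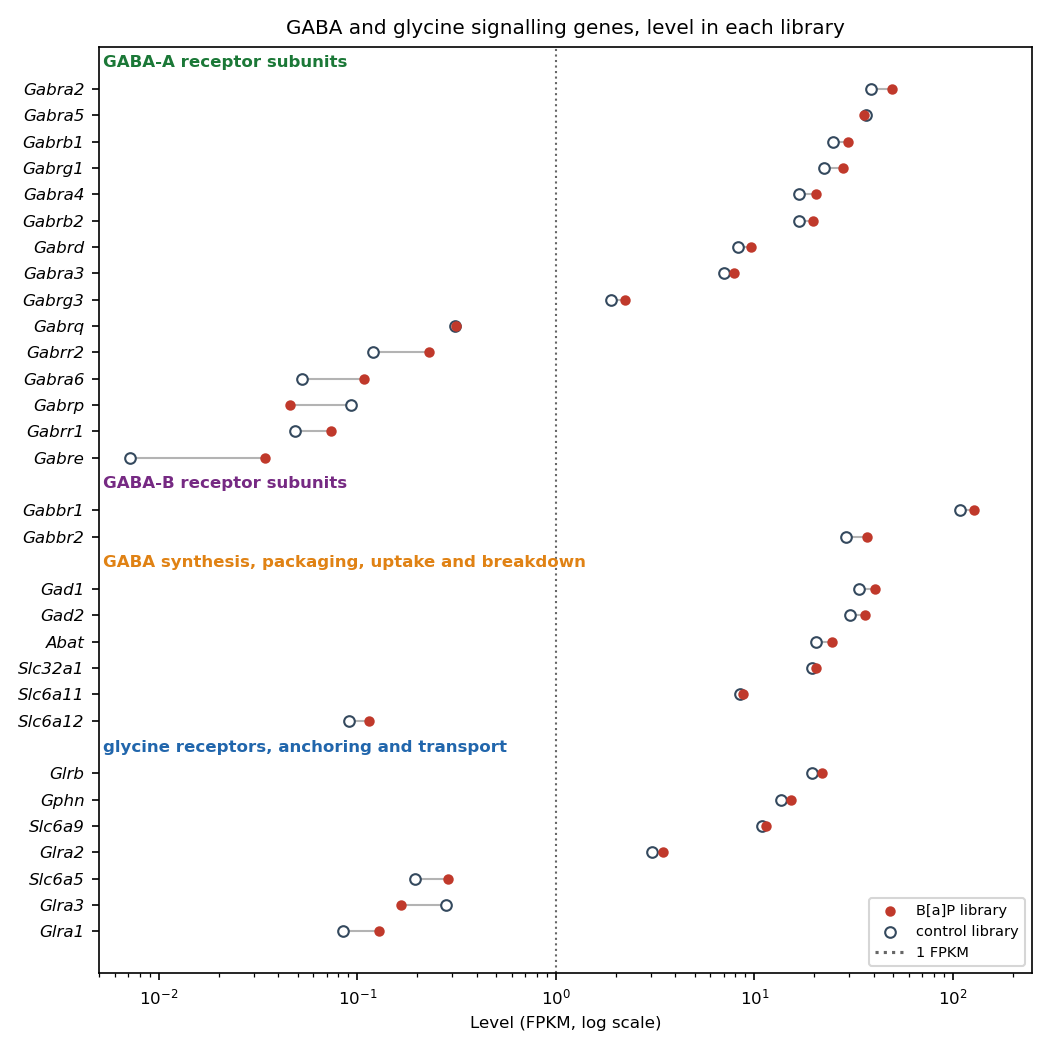
Level of each of the 30 genes in FPKM (log axis) in the B[a]P library (filled) and the control library (open), grouped by role and ordered by mean level, 1 library per point. The dotted line marks 1 FPKM. Above it the B[a]P point lies to the right for every gene except Gabra5, and the widest gaps belong to genes far below it, such as Gabre at 0.0342 and 0.00718 FPKM.

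Among the alpha subunit genes, which shape the site where GABA and benzodiazepines bind, Gabra2 had the highest level and the largest difference. It was at 49.4 FPKM after B[a]P against 38.8 FPKM in the control, 1.27-fold higher, and its log2 ratio of 0.34 exceeded that of 96.5% of symbols. Gabra5, which encodes the alpha5 subunit of extrasynaptic receptors and is characteristic of hippocampal pyramidal cells, was at 35.8 against 36.5 FPKM. Its log2 ratio of -0.03 was the one below 0 among the 20 genes and exceeded that of 19.5% of symbols. The ratio of Gabra2 to Gabra5 within a library, which no library scaling can change, was thus 1.38 in the B[a]P library and 1.06 in the control library. Gabra4, whose subunit pairs with delta in dentate granule cells, was 1.22-fold higher (20.4 against 16.8 FPKM), and Gabra3 1.12-fold higher (7.88 against 7.01 FPKM). The order of alpha genes by level, Gabra2, Gabra5, Gabra4 and Gabra3, was the same in both libraries. Of the summed FPKM of the 5 alpha genes, Gabra2 took 43.5% in the B[a]P library and 39.1% in the control library, and Gabra5 took 31.5% and 36.8%.

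The beta subunit genes, which are needed for assembly and surface delivery of the receptor, differed by similar amounts. Gabrb1 was at 29.6 against 24.9 FPKM (1.19-fold higher) and Gabrb2 at 19.6 against 16.8 FPKM (1.17-fold higher). Their ratio was 1.505 in the B[a]P library and 1.48 in the control library. Among gamma genes, which confer synaptic placement, Gabrg1 was at 27.8 against 22.3 FPKM, 1.249-fold higher and just short of the size rule. Gabrg3, at 2.23 against 1.89 FPKM, was the least abundant of the subunit genes above 1 FPKM. Gabrd, which encodes the delta subunit of tonic receptors in dentate granule cells, was at 9.59 against 8.31 FPKM, 1.15-fold higher. As classes, the alpha, beta, gamma and delta genes took 55.9%, 24.2%, 14.8% and 4.72% of the summed FPKM of the 15 subunit genes in the B[a]P library. In the control library the shares were 57.0%, 23.9%, 13.9% and 4.78%, so that the make-up by class was close even though single alpha genes were not.

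Both GABA-B receptor genes had higher levels after B[a]P. Gabbr1, whose product binds GABA, was the most abundant of the 30 genes at 128 against 109 FPKM, 1.18-fold higher. Gabbr2, whose product couples the dimer to G proteins, was at 36.7 against 28.9 FPKM, 1.27-fold higher, with a log2 ratio of 0.33 above that of 96.2% of symbols. The ratio of Gabbr1 to Gabbr2 was 3.49 in the B[a]P library and 3.76 in the control library.

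Of the 5 genes of GABA synthesis, packaging, uptake and breakdown at 1 FPKM or more, none passed the size rule. The glutamate decarboxylase genes Gad1 and Gad2, which make GABA in interneurons, were at 40.3 against 33.7 FPKM and 36.2 against 30.2 FPKM. These are ratios of 1.195 and 1.200, and Gad1 stood to Gad2 at 1.11 in the B[a]P library and 1.12 in the control library. Abat, the transaminase that breaks GABA down, was 1.21-fold higher (24.5 against 20.3 FPKM). The vesicular transporter gene Slc32a1, which loads GABA and glycine into vesicles and is expressed by the same interneurons as Gad1, was at 20.3 against 19.6 FPKM, 1.04-fold higher. The ratio of Gad1 to Slc32a1 was 1.98 in the B[a]P library and 1.72 in the control library. Slc6a11, the astrocytic GABA transporter GAT-3, was at 8.76 against 8.42 FPKM, also 1.04-fold higher. Both transporter genes lay below the table's median log2 ratio and the 3 enzyme genes above it, a difference that was not tested. Slc6a13, the GABA transporter GAT-2, which is not a member, was at 1.96 against 1.75 FPKM, with a log2 ratio of 0.10 just above that median.

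Marker genes of the cells that hold these transcripts did not all move by the same amount. The 19 interneuron markers at 1 FPKM or more had a median log2 ratio of 0.09, the same as the table to 2 decimals, with 1 higher and 0 lower by the size rule. Cck (111 against 110.4 FPKM) and Sst (80.7 against 72.7 FPKM), both peptide genes, were the most abundant of them, and Npy was listed at 0 in both libraries. Which cells the Cck transcripts came from cannot be read from bulk tissue. Summed over the 24 interneuron markers, the level was 328 FPKM after B[a]P against 307 FPKM in the control, with Cck the largest part in both. Markers of dentate granule cells had a median of 0.26, with 3 of 7 higher and 0 lower, and summed levels of 122 and 108 FPKM. They were not uniform: 4 of the 7 lay above the table's median and 3 below it. Calb1 (43.9 against 36.6 FPKM) and C1ql2 (39.8 against 39.6 FPKM) were the most abundant of that list. Pyramidal cell markers had a median of 0.11, with 0 of 10 higher and 1 lower, and astrocyte markers a median of 0.19, with 4 of 10 higher. Sums were 920 and 840 FPKM for pyramidal cells and 1593 and 1381 FPKM for astrocytes. The part of these cell type markers in the members' differences was not tested.

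**Figure D2:**
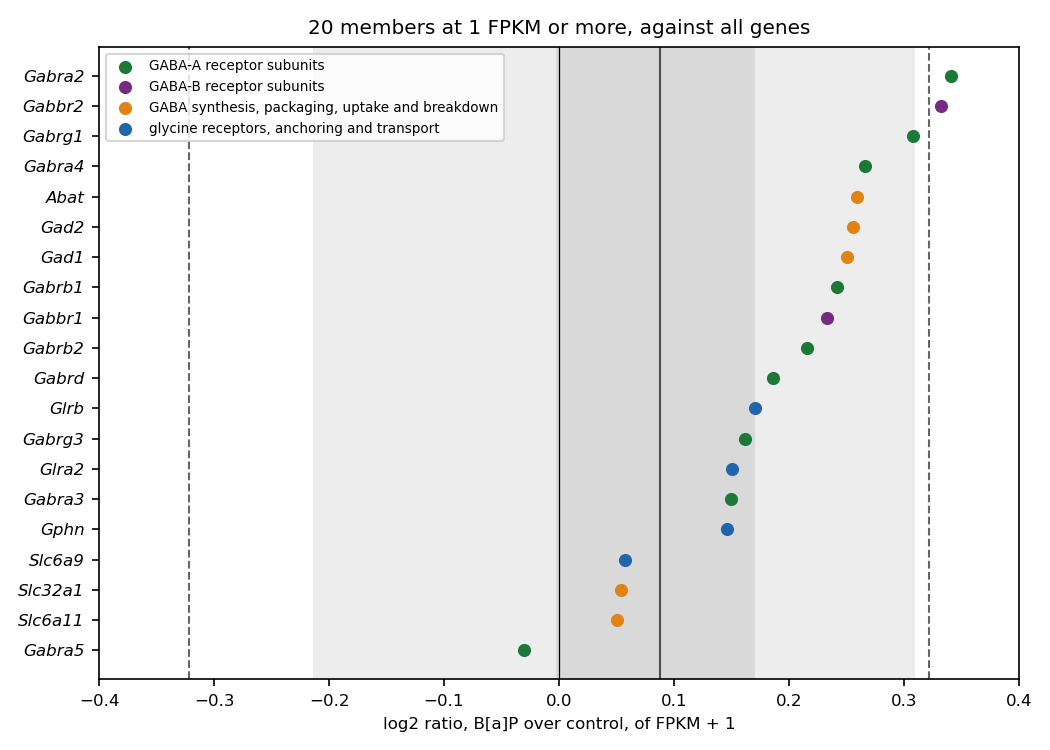
Log2 ratio of B[a]P over control, of FPKM + 1, for the 20 genes at 1 FPKM or more, coloured by role, with 1 library per group. The pale and dark bands hold the central 90% and 50% of all 13261 symbols, the solid grey line is their median of 0.09, and the dashed lines mark 25% higher and 20% lower. Gabra2 and Gabbr2 lie beyond the right dashed line, and Gabra5, Slc6a11, Slc32a1 and Slc6a9 lie left of the median.

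The 4 glycine system members at 1 FPKM or more had log2 ratios from 0.06 to 0.17, none past the size rule. Glrb, the beta subunit gene that ties glycine receptors to gephyrin, was at 21.9 against 19.4 FPKM, 1.13-fold higher. Glra2, the alpha subunit gene that prevails in forebrain, was at 3.48 against 3.04 FPKM, 1.15-fold higher. Glrb exceeded Glra2 6.30-fold in the B[a]P library and 6.39-fold in the control library. Gphn, which encodes gephyrin, was at 15.2 against 13.7 FPKM, 1.11-fold higher, and stood to Glrb at 0.694 and 0.704. Slc6a9, the glycine transporter GlyT1 of glia and some glutamatergic neurons, was at 11.4 against 10.9 FPKM, 1.04-fold higher. The last value lay below the table's median, and the other 3 genes above it.

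The 10 genes below 1 FPKM include the members with the largest ratios, but these rest on few sequenced fragments. Low FPKM values of the 2 libraries stood in ratios of whole numbers times 1 constant, 1.06, the relative depth of the control over the B[a]P library. For each of the 10 genes the smallest pair of whole numbers was taken from its ratio, and the true numbers are that pair or a multiple of it. Gabre, the epsilon subunit gene, was at 0.0342 against 0.00718 FPKM, which corresponds to 9 against 2, and its ratio of 4.77 had an exact conditional binomial 95% interval of 0.987 to 45.3. Such intervals cover counting error only and are at their widest for the smallest pair. Gabrr2, a rho subunit gene best known from retina, was at 0.230 against 0.120 FPKM (69 against 38), 1.92-fold higher with an interval of 1.28 to 2.94. Its neighbour and relative Gabrr1 was at 0.0733 against 0.0487 FPKM (27 against 19), with an interval of the ratio from 0.807 to 2.86. Gabra6, typical of cerebellar granule cells, was at 0.108 against 0.0529 FPKM (25 against 13; interval 1.004 to 4.34). The 6 cerebellar markers at 1 FPKM or more had a median log2 ratio of -0.01, with 1 higher and 0 lower by the size rule. That gene was Cbln1 (2.80 against 1.82 FPKM). Of the markers below 1 FPKM, Fat2 (0.0857 against 0.0326 FPKM) and Cbln3 (0.118 against 0.0680 FPKM) were higher. Barhl1 was lower (0.00954 against 0.0450 FPKM), and Barhl2 was at 0.0217 against 0.0205 FPKM. The part of cerebellar RNA in the Gabra6 value was not tested.

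Of the remaining low genes, some lay in the opposite direction. Gabrp, the pi subunit gene of mostly non-neural tissues, was lower in the B[a]P library at 0.0458 against 0.0930 FPKM (13 against 28), a ratio of 0.492 with an interval of 0.234 to 0.981. Glra3, an alpha subunit gene of glycine receptors, was at 0.166 against 0.280 FPKM (19 against 34; interval of the ratio 0.319 to 1.07). Slc6a5, the neuronal glycine transporter GlyT2 that marks glycinergic neurons of brainstem and spinal cord, was at 0.285 against 0.194 FPKM (104 against 75; 1.47-fold, interval 1.08 to 2.00). Glra1, the alpha subunit gene of adult spinal receptors, was at 0.129 against 0.0842 FPKM (13 against 9), and Slc6a12, the betaine and GABA transporter BGT1, at 0.114 against 0.0904 FPKM (25 against 21). Gabrq, the theta subunit gene, was at 0.314 against 0.311 FPKM (59 against 62). The intervals of 4 of the 10 genes, Gabra6, Gabrp, Gabrr2 and Slc6a5, did not include 1. Over the 10870 symbols below 1 FPKM for which such a pair was found, this held for 12.5%, a share that also depends on how many fragments each symbol has, so nothing particular to the members is read from it. None of the 10 exceeded 0.314 FPKM in either library.

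The miRNA-seq libraries listed a miRNA of the Gabre locus, whose relation to the Gabre mRNA level was not tested. In RefSeq (GRCr8) the miR-224 hairpin lies within Gabre. Its mature forms are shown with the seed (bases 2 to 8) in capitals, since the seed pairs with target mRNAs.
miR-224-5p (chrX:155107183-155107204, minus strand): cAAGUCACuagugguuccguuu
miR-224-3p (chrX:155107136-155107157, minus strand): aAAUGGUGcccuagugacuaca
miR-224-5p was at 2.16 RPM (reads relative to the library's total) after B[a]P against 0.738 RPM in the control, which by the step size of each library are 31 and 12 reads. The ratio was 2.93, with an exact conditional binomial 95% interval of 1.46 to 6.26 for counting error only. Across the 332 miRNAs at 10 RPM or more the median log2 ratio was 0.36, and miR-224-5p lay under 10 RPM in both libraries. miR-452-5p, known as a neighbour of miR-224, had no entry in the miRNA table of the reference, so its place in rat Gabre was not checked. It was at 12 reads in the B[a]P library and listed at 0 in the control library, where the smallest number of reads listed was 10. The 3p arms of both miRNAs were listed at 0 in both libraries.

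Several members lie next to each other in the genome, a feature that their choice did not use. In the RefSeq gene order of GRCr8, members no more than 1 Mb apart form 5 groups: Gabrg3 with Gabra5, Gabra6 with Gabrb2, Gabrr2 with Gabrr1, Gabre with Gabra3 and Gabrq, and Gabrb1, Gabra4, Gabra2 and Gabrg1 on chromosome 14. The chromosome 14 group held all 4 GABA-A subunit genes with the highest log2 ratios, from 0.24 for Gabrb1 through 0.27 for Gabra4 and 0.31 for Gabrg1 to 0.34 for Gabra2. By contrast, Gabra5 and its neighbour Gabrg3 had log2 ratios of -0.03 and 0.16. The 12 other protein-coding genes around the chromosome 14 group that reached 1 FPKM had a median of 0.12, and 9 of them lay above the table's median. Their range, from -0.22 for Tec to 0.29 for the flippase gene Atp8a1 (38.2 against 31.1 FPKM), overlapped that of the 4 subunit genes. Whether the group differs from its surroundings cannot be tested with 1 library per condition.

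**Figure D3:**
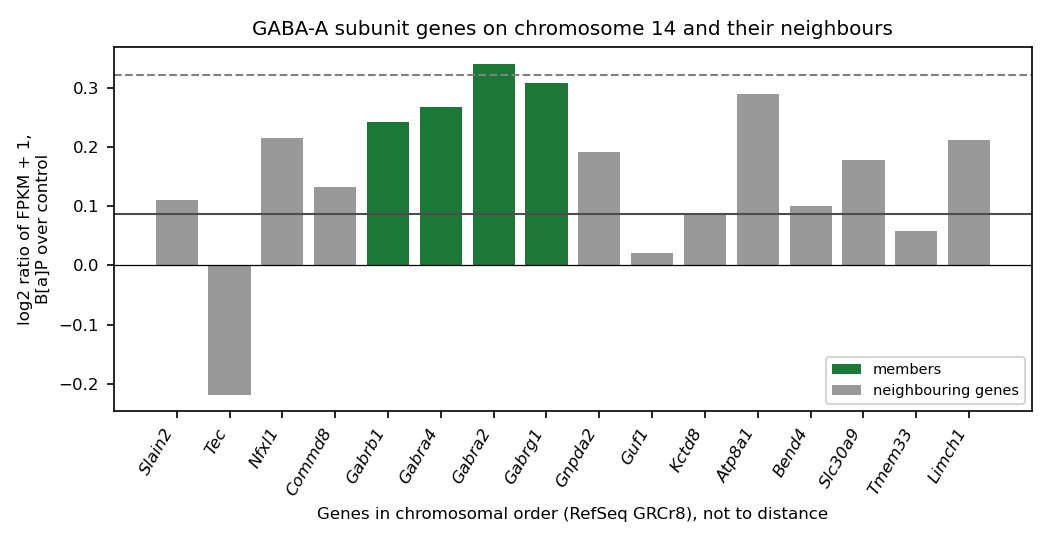
Log2 ratio of B[a]P over control, of FPKM + 1, for the 4 GABA-A subunit genes of chromosome 14 (green) and the neighbouring protein-coding genes at 1 FPKM or more (grey), in chromosomal order and not to distance. The solid grey line is the median of all symbols, 0.09, and the dashed line marks 25% higher. The 4 subunit genes stand between 0.24 and 0.34, and Atp8a1 at 0.29 is the highest neighbour.

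Promoter sequences are shown for 3 of these neighbours and for Gabbr2 and Gad1, as examples of members with log2 ratios of 0.24 or more. B[a]P is a ligand of the aryl hydrocarbon receptor, whose binding element has the core GCGTG. Each window runs from 250 bases before to 50 after the RefSeq start (GRCr8), 5′ to 3′ on the gene's strand, with GCGTG on either strand in capitals (CACGC where it is on the other strand).
Gabrb1 (chr14:36902844-36903143, minus strand): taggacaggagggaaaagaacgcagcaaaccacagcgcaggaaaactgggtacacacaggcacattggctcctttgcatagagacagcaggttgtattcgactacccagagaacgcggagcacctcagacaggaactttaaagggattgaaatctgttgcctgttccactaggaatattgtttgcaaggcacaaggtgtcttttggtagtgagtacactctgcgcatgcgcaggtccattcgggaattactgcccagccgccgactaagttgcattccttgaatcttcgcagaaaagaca
Gabra4 (chr14:36944497-36944796, plus strand): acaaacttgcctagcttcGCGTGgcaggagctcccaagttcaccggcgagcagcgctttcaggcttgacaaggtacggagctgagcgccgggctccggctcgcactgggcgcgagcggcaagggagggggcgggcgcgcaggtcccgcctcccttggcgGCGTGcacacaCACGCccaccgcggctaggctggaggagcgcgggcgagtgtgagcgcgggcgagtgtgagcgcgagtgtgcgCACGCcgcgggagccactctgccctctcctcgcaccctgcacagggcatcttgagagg
Gabrg1 (chr14:37750042-37750341, plus strand): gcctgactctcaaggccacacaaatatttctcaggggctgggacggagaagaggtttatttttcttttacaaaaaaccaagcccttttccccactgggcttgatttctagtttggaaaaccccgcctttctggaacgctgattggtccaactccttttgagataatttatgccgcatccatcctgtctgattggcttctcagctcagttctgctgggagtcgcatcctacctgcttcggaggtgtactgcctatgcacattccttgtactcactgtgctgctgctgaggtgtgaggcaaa
Gabbr2 (chr5:66083646-66083945, minus strand): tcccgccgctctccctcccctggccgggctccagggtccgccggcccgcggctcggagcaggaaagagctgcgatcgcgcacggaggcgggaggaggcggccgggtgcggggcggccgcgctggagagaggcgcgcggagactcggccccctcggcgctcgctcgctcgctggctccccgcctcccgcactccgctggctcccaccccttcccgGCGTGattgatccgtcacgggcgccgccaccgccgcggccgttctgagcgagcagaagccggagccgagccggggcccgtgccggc
Gad1 (chr3:75777202-75777501, plus strand): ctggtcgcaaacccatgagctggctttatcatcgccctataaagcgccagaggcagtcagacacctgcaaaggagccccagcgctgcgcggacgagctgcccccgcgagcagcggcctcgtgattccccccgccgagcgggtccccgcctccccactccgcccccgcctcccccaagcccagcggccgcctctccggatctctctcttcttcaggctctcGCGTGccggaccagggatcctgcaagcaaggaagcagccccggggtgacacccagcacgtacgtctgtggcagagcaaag
The Gabra4 window held the core 4 times, the Gad2 window (not shown) 3 times, those of Gabbr2 and Gad1 in 1 place each, and those of Gabrb1 and Gabrg1 not at all. The log2 ratios of Gabra4, Gabrb1 and Gabrg1 were 0.27, 0.24 and 0.31. Of the 26 members in the promoter table, 12 (46.2%) held GCGTG on either strand, against 29.7% of all 33469 windows of the same length. The longer TNGCGTG, every match of which contains a GCGTG, was in 3 member windows (Gabra4, Gad1 and Slc6a5), or 11.5%, against 4.89% of all windows. The cyclic AMP element TGACGTCA, which does not contain GCGTG, was in 0 of the 26 and in 1.83% of all windows. Members' windows were also richer in the dinucleotide CG, with a median of 22.5 against 7 for all windows, and GCGTG and TGACGTCA each contain it. A match describes these letters and is not evidence of binding. Gabra2, Abat, Glra1 and Gabrp had no entry.

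Genes around the members were read from lists of related function. Of 15 partners of GABA-A and glycine receptors at inhibitory synapses that reached 1 FPKM, 0 were higher or lower by the size rule, and 5 lay above the table's median, with a list median of 0.03. The most abundant, Gabarapl1, which encodes a trafficking and autophagy protein related to the GABA-A receptor-associated protein, was at 275 against 224 FPKM. Of 13 partners and effectors of GABA-B receptors, 0 passed the size rule and 10 lay above the table's median (list median 0.13). Gnb1, a G-protein beta subunit gene, was the most abundant at 128 against 114 FPKM. These counts stand beside 8 of 9 GABA-A subunit genes and both GABA-B genes above the table's median.

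Chloride handling genes, which set the direction of the current through GABA-A and glycine receptors, had a median of -0.01. Of 11 at 1 FPKM or more, 0 were higher and 2 lower by the size rule. Slc12a2, the chloride importer NKCC1, was 1.34-fold lower after B[a]P (18.3 against 24.6 FPKM), and Car2, a carbonic anhydrase gene, 1.36-fold lower (58.7 against 79.8 FPKM). Both are also expressed in choroid plexus. All 11 choroid plexus markers at 1 FPKM or more were lower by the size rule. The 12 markers summed to 66.4 FPKM against 3441 FPKM, most of it Ttr (60.5 against 3300 FPKM). Otx2, the marker below 1 FPKM, was at 0.00692 and 0.0180 FPKM. Slc12a5, the neuronal chloride exporter KCC2, which the rule for naming genes did not select, was at 34.2 against 34.5 FPKM. The part of choroid plexus RNA in the lower values was not tested.

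In the list for GABA supply and breakdown outside the members, 1 of 14 genes was higher and 0 lower by the size rule (median 0.17). That gene was Ogdh, of the citric acid cycle, at 9.25 against 6.23 FPKM. Glul, the astrocytic glutamine synthetase gene and the most abundant of the list, was at 462 against 416 FPKM. In glycine metabolism, 0 of 12 were higher and 2 lower (median 0.05): Slc6a20, a transporter of proline and glycine, at 5.43 against 9.73 FPKM, and Phgdh, which begins serine and thus glycine synthesis, at 24.0 against 38.2 FPKM. Psat1, the next enzyme of that route and the most abundant of the list, was at 44.4 against 43.5 FPKM. Of the meningeal markers, 3 of 7 were lower by the size rule and 4 neither higher nor lower. The sums of all 10 listed, 22.1 against 44.3 FPKM, differed mainly by Slc13a4 and Igf2. Slc13a4 was at 2.43 against 11.3 FPKM and Igf2 at 3.37 against 13.8 FPKM, whereas Lum was at 2.05 against 2.01 FPKM. The part of meningeal or choroid plexus RNA in the Slc6a20 value was not tested.

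**Figure D4:**
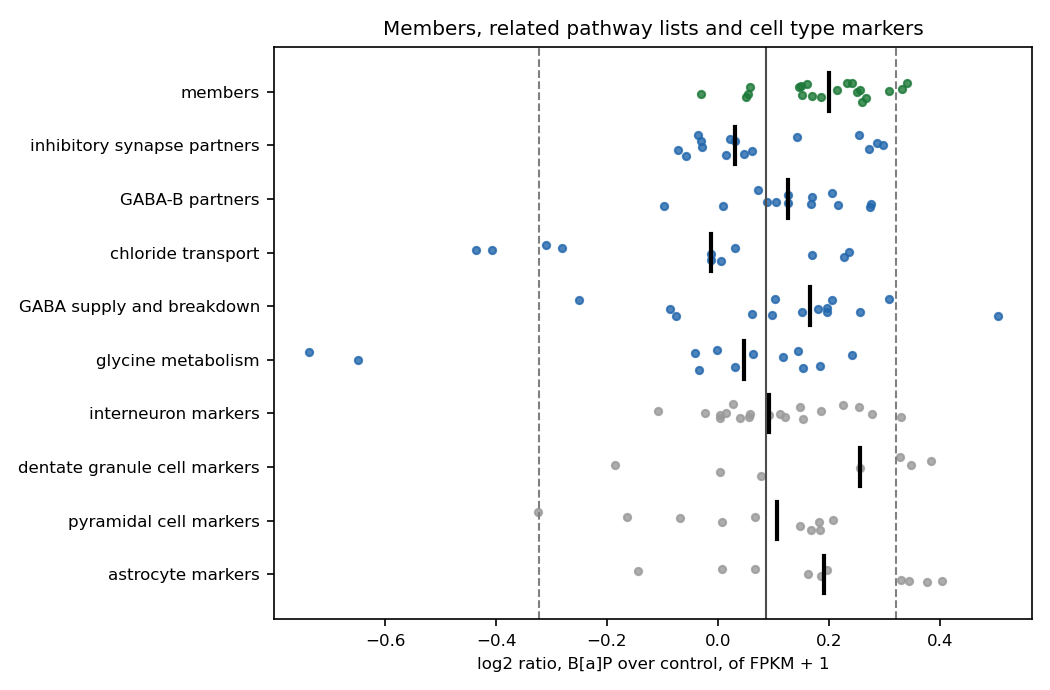
Log2 ratio of B[a]P over control, of FPKM + 1, for each gene at 1 FPKM or more among the members (green), related pathway lists (blue) and markers of interneurons, dentate granule cells, pyramidal cells and astrocytes (grey), with list medians as black bars and vertical scatter for legibility alone. The solid line is the median of all symbols, 0.09, and the dashed lines mark 25% higher and 20% lower. The members' median of 0.20 lies between that of astrocyte markers, 0.19, and that of dentate granule cell markers, 0.26, while chloride transport genes have a median of -0.01. Choroid plexus, meningeal and other regional markers are not plotted.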

How the data were processed

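Hippocampal RNA-seq and miRNA-seq libraries, 1 per group and assay, were grouped by their titles. The mRNA tables hold FPKM values as deposited by the authors, a unit no label states and which was inferred from the values. RPM values fill the miRNA tables, as deposited. The submitters' processing notes name bcl2fastq, rn6 and rn5, with no role. Aligner, counting tool and annotation: not given in the sources used here. Total RNA-seq depth is unknown. From the steps of the RPM values, the miRNA libraries hold 14.4 M reads after B[a]P and 16.3 M in the control.

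Ratios were computed as log2(FPKM + 1), which understates those of low genes. Printed folds are ratios without pseudocount. Symbols that reached 1 FPKM in at least 1 library were kept, and the size rule was 25% higher or 20% lower. All members are named. Of each pathway list, up to 4 genes past the size rule and the most abundant gene are named. The members and lists were chosen with earlier results of these data known. Whole-number pairs were accepted up to 150 within 1e-05 on the natural log scale, with the constant 1.06 taken from 753 symbols. Pairs up to 60 were found for 92.9% of 8862 symbols under 0.35 FPKM and for 0.158% at a shifted constant. All 30 symbols matched the RefSeq gene table and 26 its promoter windows. The lncRNA tables, which hold no member, and the methylation tables were not used here. The calculations used Python 3.11.15, pandas 2.3.3, numpy 2.4.6 and scipy 1.17.1, and were tested on simulated data.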

Additional observations from a re-analysis of the deposited data

How the results depend on the processing

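A pseudocount of 0.1 FPKM, a floor of 5 FPKM and the choice of line per symbol (each symbol has 1 line) left the members' counts within 1.5 times and their median within 0.05. Scaling by the median of ratios, or by the sum without the 100 most abundant symbols, lowered the members' count at 25% higher from 2 to 0 and their median log2 ratio from 0.20 to 0.11 and 0.12, while the table's median fell from 0.09 to 0.01 in both. Relative to the table, the members' median stood 0.11 higher as deposited and 0.11 higher under both scalings. Without a floor, all 30 members entered, 26 lay above the table's median and their median was 0.15. For the pathway lists these settings were chosen after seeing the data: both scalings raised the count of chloride genes past the size rule from 2 to 4, and both scalings and the lower pseudocount raised that of GABA supply and breakdown genes from 1 to 2. No paired analysis was possible because each group has 1 library. Unknown RNA-seq depth leaves members above 1 FPKM without a counting interval.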

Other observations

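Markers of neighbouring brain regions gave values that belong in no comparison above. Thalamic and hindbrain markers reached 1 FPKM for 4 of 13 genes, with a median log2 ratio of 0.05. The 13 summed to 20.2 FPKM after B[a]P against 19.6 FPKM in the control. The 4 genes were Rora, Plekhg1, Slc17a6 and Calb2, and Calb2 is also among the interneuron markers. Hoxb3, the most abundant Hox gene of the list, was at 0.0196 against 0.0185 FPKM. The part of hindbrain RNA in the Slc6a5 and Glra1 values was not tested. Cerebellar markers summed to 68.1 against 60.9 FPKM, most of it Itpr1 (54.4 against 47.5 FPKM), which forebrain neurons also express. Striatal markers, of a region rich in GABA projection neurons, had a median of 0.07, with 0 of 7 genes past the size rule.

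In the promoter windows, the 18 members at 1 FPKM or more held a median of 29.5 CG dinucleotides and the 8 members below it 8.5. Gabra3, at 7.88 against 7.01 FPKM, and Gabra6, at 0.108 against 0.0529 FPKM, held 0 CG each, and Gabbr2 held the most, 47.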
